A study of Mus musculus with 6 samples.

Results

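Car3, Retn and Pck1 are 3 genes out of 5294 measured over all sections, and they were selected on measured values, namely on their raw counts, their shared cells and their position in the spleen. Their levels and shared detection are therefore given as a description, with no test. RNA molecules were imaged in situ in 6 sections of 5 µm from fixed, paraffin-embedded mouse tissue, with 1 section per group. The mice are labelled wild-type, except that the label of the PHZ-treated spleen gives no genotype. On a panel of 477 genes, the E14.5 fetal liver, the bone marrow at postnatal day 8 (P8), an untreated spleen and a spleen after phenylhydrazine (PHZ) were measured in 1 run. The liver and the P8 marrow lay on 1 slide and both spleens on another, so that levels of spleen against liver or marrow cross slides. PHZ, which lyses red cells, had been injected at 40 mg per kg, 2 times a day for 2 days. The label of the control spleen names an adult mouse and no treatment, whereas the methods mention injection of saline vehicle, and it is called untreated here. The E13.5 fetal liver and the bone marrow of an 89-week-old mouse (aged bone marrow) were measured in a later run on 5050 genes, where of the 3 genes only Retn was analyzed.

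Car3 encodes a carbonic anhydrase of the cytosol that is abundant in fat cells, in skeletal muscle fibers and in liver. Retn encodes resistin, a hormone that mouse fat cells secrete. Pck1 encodes the cytosolic phosphoenolpyruvate carboxykinase, which makes glucose in liver and kidney and the glycerol backbone of stored lipid in fat. Fat cells thus transcribe all of them, whereas muscle is known for Car3 and liver for Car3 and Pck1. Fat also lies along blood vessels, muscle and the surfaces of abdominal organs.

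The sections held between 5285 and 143810 segmented cells and between 1384795 and 20952143 gene counts. A count is 1 decoded transcript within the outline of a cell. No pair of sections had more than 6 cell names in common. The most abundant negative control probe, which matches no mouse transcript, gave from 40 to 105 counts per section on the smaller panel, and 1 and 18 on the larger. With 1 section per group, animal, section plane and condition cannot be told apart, and all intervals (95%, exact) cover counting error only.

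Stretches of 250 bases before the start of transcription are shown for both members that the RefSeq promoter table (GRCm38.p6) lists, because these genes shared cells in the untreated spleen. Retn is at chr8:3655520-3655769 and Pck1 at chr2:173152823-173153072, both on the plus strand.
Retn: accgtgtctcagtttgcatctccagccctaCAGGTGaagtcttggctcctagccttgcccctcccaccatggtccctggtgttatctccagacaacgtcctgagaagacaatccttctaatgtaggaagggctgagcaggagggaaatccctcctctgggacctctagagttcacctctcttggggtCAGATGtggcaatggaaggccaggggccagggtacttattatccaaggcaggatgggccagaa
Pck1: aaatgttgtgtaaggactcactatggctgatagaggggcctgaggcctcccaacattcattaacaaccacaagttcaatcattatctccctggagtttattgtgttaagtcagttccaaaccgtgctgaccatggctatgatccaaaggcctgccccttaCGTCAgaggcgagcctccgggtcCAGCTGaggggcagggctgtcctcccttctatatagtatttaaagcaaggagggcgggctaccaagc
Capitals mark matches, on either strand, to TGACG, the core of the cyclic AMP response element, and to CANNTG, the E-box. TGACG stood in Pck1 at -90 from the start and was held by 17.8% of 32851 promoters. CANNTG stood at -67 in Pck1 and at -220 and -63 in Retn, and was held by 66.2% of promoters. Neither stretch held TATAAA, the form in which the TATA box was searched, which was held by 12.4% of promoters. Other forms of that box were not searched, such as the tatttaaa near the end of the Pck1 stretch. Also absent from both were CCAAT, held by 33.8%, the nuclear receptor site AGGTCA, held by 14.02%, and the C/EBP site TTGCNNAA, held by 9.56%. Car3 is named only.

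The genes had different sections of highest level. Levels are given as CPM, the counts of a gene scaled to the same total of gene counts in every section. Car3 had 19444 counts in the P8 marrow, 60533 in the E14.5 liver, 16837 in the untreated spleen and 540 in the PHZ-treated spleen. This came to 3016 CPM (2974 to 3059), 2889 CPM (2866 to 2912), 1626 CPM (1602 to 1651) and 47.2 CPM (43.3 to 51.4). The first of these exceeded the next only 1.04-fold (1.03 to 1.06), and that order turned over transcripts above the nucleus, at 1257 CPM in the marrow and 2221 CPM in the liver, and over the genes common to both panels as denominator, at 6337 and 6786 CPM. The P8 level rested on cells with at least 3 counts of skeletal muscle genes, at 18123 CPM, and the other P8 cells stood at 753 CPM. In the untreated spleen Car3 stood at 87.4 CPM without 1 patch of cells at the tissue edge.

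Retn was highest in the untreated spleen, with 6786 counts and 656 CPM (640.0 to 671). The P8 marrow had 463 counts (71.8 CPM, 65.4 to 78.7), the PHZ-treated spleen 544 (47.6 CPM, 43.7 to 51.8) and the E14.5 liver 710 (33.9 CPM, 31.4 to 36.5). Retn was 9.13-fold (8.31 to 10.1) higher in the untreated spleen than in the next section. That lead rested on 1 patch of cells at the tissue edge, and without the patch Retn stood at 64.9 CPM and no longer above the P8 marrow. Over nuclei it was 216 CPM in the untreated spleen and 90.5 CPM in the P8 marrow. On the larger panel it had 73 counts in the aged marrow and 2 in the E13.5 liver, which is 5.59 CPM (4.38 to 7.03) and 1.44 CPM (0.175 to 5.22), of a total over many more genes. Over the 233 genes common to both panels, Retn stood at 1239.6 CPM in the untreated spleen, 151 in the P8 marrow, 96.5 in the PHZ-treated spleen, 79.6 in the E14.5 liver, 56.1 in the aged marrow and 19.2 in the E13.5 liver, which is the same order.

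Pck1 was likewise highest in the untreated spleen, with 1976 counts and 191 CPM (183 to 199). It had 527 counts in the P8 marrow (81.7 CPM, 74.9 to 89.0), 904 in the E14.5 liver (43.1 CPM, 40.4 to 46.1) and 121 in the PHZ-treated spleen (10.6 CPM, 8.78 to 12.6). Neighbors in this order differed beyond counting error, the closest by 1.89-fold (1.698 to 2.11). Without the same patch Pck1 stood at 24.0 CPM in the untreated spleen, under both the P8 marrow and the E14.5 liver.

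**Figure D1:**
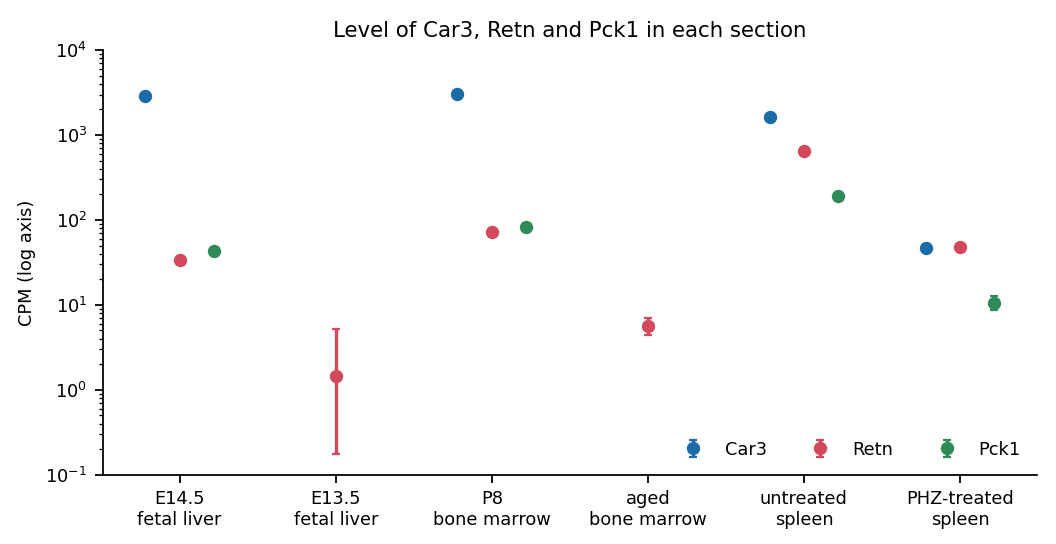
CPM on a log axis of Car3, Retn and Pck1 in each section (1 section per group). Bars are exact 95% Poisson intervals and cover counting error only, most of them smaller than the points. Only Retn is plotted for the E13.5 liver and the aged marrow. Over whole sections Retn and Pck1 stand highest in the untreated spleen and Car3 in the E14.5 liver and P8 marrow. Without the patch at the edge of the untreated spleen, which is not plotted apart, Retn (64.9 CPM) is no longer above the P8 marrow, and Pck1 (24.0 CPM) lies under the P8 marrow and the E14.5 liver, both taken whole. Car3 is 87.4 CPM in the untreated spleen without that patch. In P8 cells under 3 counts of skeletal muscle genes Car3 is 753 CPM.

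The distribution of the counts over cells also differed between sections. Car3 was seen in 29.5% of cells of the E14.5 liver, with at most 16 counts in a cell, and in 10.1% of cells of the P8 marrow, with at most 47. In the untreated spleen Car3 was seen in only 1.61% of cells but reached 183 counts in 1 cell. Retn reached 73 counts and Pck1 23 counts in a cell of the untreated spleen. In the PHZ-treated spleen the highest count in a cell was 4 for Car3 and 2 for each of Retn and Pck1. The variance of the counts over cells, divided by their mean, was 59.6 for Car3, 25.5 for Retn and 7.55 for Pck1 in the untreated spleen, against 1.11, 1.00 and 1.02 in the PHZ-treated spleen, where 1 is the value of independent single counts.

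In the untreated spleen the 3 genes were often found in the same cells. Of 1150 cells with Retn, 450 also had Car3 (39.1%, 36.3 to 42.0), where the product of the shares of positive cells gives 18.5 cells. Of 620 cells with Pck1, 370 also had Car3 (59.7%, 55.7 to 63.6), against 9.99 from the product. Of the same 620 cells, 339 also had Retn (54.7%, 50.7 to 58.6), against 6.58. All 3 genes were seen together in 337 cells. Among cells with at least 3 counts the overlap was closer to complete. Car3 at this level was found in 340 of 342 such Retn cells and in all 213 such Pck1 cells, and 209 cells had at least 3 counts of every member. In the other direction, 73.6% of 462 such Car3 cells had Retn and 46.1% had Pck1 at this level. At 1 count, 25.8% of 1745 Car3 cells had Retn and 21.2% had Pck1.

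In the other sections the cells shared were closer in number to the products, and those of Retn exceeded the products beyond counting error in the P8 marrow alone. In the PHZ-treated spleen 3 cells had both Car3 and Retn, 1 had Car3 and Pck1, and 1 had Retn and Pck1, against 2.96, 0.655 and 0.688 from the products. In the E14.5 liver 210 cells had Car3 and Retn, against 208, and 4 had Retn and Pck1, against 5.27, all within counting error. Car3 and Pck1 shared 454 cells of that liver, 1.75 times (1.60 to 1.92) the product. In the P8 marrow Car3 and Pck1 shared 220 cells, 5.66 times (4.93 to 6.45) the product, Retn and Pck1 28 cells, 8.70 times (5.78 to 12.6), and Car3 and Retn 90 cells, 2.01 times (1.62 to 2.48). At 3 counts or more, 39 of the 40 Pck1 cells and all 5 Retn cells of the P8 marrow also had Car3.

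Most member counts of the untreated spleen, and nearly all cells with at least 3 of them, lay in 1 place. Squares of 50 µm with at least 5 counts of the members were joined into patches where they touched. The section held 19 patches, and the largest, of 103 squares (0.258 mm²) and 3249 cells at the left border of the section, held 94.8% of Car3, 90.5% of Retn and 87.9% of Pck1 counts in 2.999% of the cells. Outside this edge patch 870 Car3, 646 Retn and 239 Pck1 counts were left among 105089 cells. Cells with at least 1 count were more widespread, and 848 of 1745 Car3, 637 of 1150 Retn and 236 of 620 Pck1 cells lay outside the patch. Of 483 cells with at least 3 counts of the members together, 480 lay in it.

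Cells with high counts lay close to the border. Of cells with at least 3 Car3, 68.6% (64.2 to 72.8) were within 100 µm of the tissue edge, with a median distance of 75.3 µm, compared with 10.6% and 352 µm for all cells. The shares were 77.2% (72.4 to 81.5) for Retn and 76.5% (70.3 to 82.0) for Pck1. Cells with only 1 or 2 counts did not crowd there for Car3 (7.56% within 100 µm, 6.17 to 9.15) and Retn (11.6%, 9.50 to 14.05), and did so less for Pck1 (29.2%, 24.9 to 33.9). With a coarser outline of the tissue, from squares of 100 µm, the shares of the high cells were 48.3%, 52.6% and 54.0%. Within the patch, Car3 fell from 37.5 counts per cell in the outermost 25 µm to 6.44 between 100 and 150 µm and 0.333 between 150 and 200 µm. Retn went from 14 to 2.32 and 0.0618, and Pck1 from 3.06 to 0.887 and 0.0239, over the same distances. The highest means were at 25 to 50 µm for Car3 (38.3) and Retn (15.8), and at 50 to 75 µm for Pck1 (4.02).

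**Figure D2:**
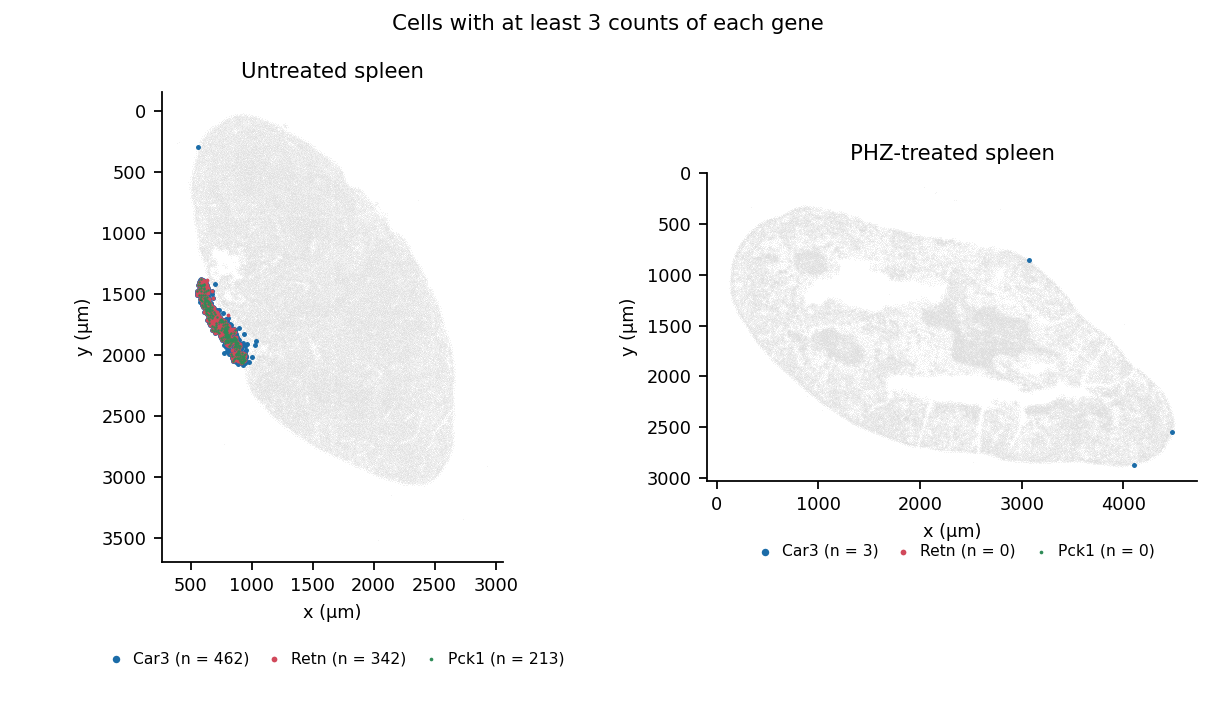
Position of cells with at least 3 counts of Car3, Retn or Pck1 in the untreated and the PHZ-treated spleen section, in µm, over all cells in gray. The untreated section has 462 Car3, 342 Retn and 213 Pck1 cells, nearly all in a band at its left border. The PHZ-treated section has 3 Car3 cells and none of the others.

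The proportions of the genes changed along this band. The patch was divided along the y coordinate into 4 stretches of 812 or 813 cells. From low to high y, Retn came to 437 (417 to 458), 379 (359 to 401), 337 (319 to 357) and 275 (225 to 334) counts per 1000 Car3 counts. Pck1 came to 88.3 (80.6 to 96.6), 94.1 (85.1 to 104), 144 (133 to 156) and 137 (104 to 178) per 1000 Car3 counts. Retn was thus lower and Pck1 higher relative to Car3 at the end of high y, and the last stretch held only 473 Car3 counts. Over the squares of the whole section, log2(count + 1) of Car3 correlated most with Retn (r = 0.81), Pck1 (0.77), Aqp7 (0.70), Cox8b (0.60) and Lum (0.58), out of 464 genes with at least 100 counts over 1869 squares. For Retn the order was Car3, Pck1 (0.79), Aqp7 (0.73), Cox8b (0.62) and Ppp1r1a (0.61), and for Pck1 it was Retn, Car3, Aqp7 (0.76), Cox8b (0.65) and Ppp1r1a (0.62). The squares share their cells and total counts between genes, and these coefficients are descriptions.

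The 483 cells with at least 3 member counts had large outlines and carried other genes of fat. Member transcripts made up 17.9% of their counts. A cell held 0 to 183 Car3 (median 23), 0 to 73 Retn (median 7) and 0 to 23 Pck1 (median 2), and Car3 was absent from 2 of these cells, Retn from 67 and Pck1 from 126. The median area of the cell outline was 148 µm² against 35.6 µm² in all other cells, while the nucleus area was 20.5 against 21.6 µm². The run descriptions of this panel name no stain for drawing cells, and how outline area relates to cell size was not tested. The median of counts other than the members was 195 against 83, so that the levels of other genes are given as CPM without the members.

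All 6 genes of the fat cell list (Aqp7, Cd36, Mgll, Cav1, Hp and Nnat) were over 2-fold higher in these cells than in all other cells, with a median fold of 17.6. Over 461 genes the median fold was 0.725, and 115 were over 2-fold higher. All marker lists were chosen with earlier results of these data known, so that these counts are a description. Aqp7, the channel through which fat cells release glycerol, stood at 1.28 counts per cell against 0.00178, a fold of 310 (263 to 366). Cox8b, a respiratory chain subunit of brown fat and muscle, stood at 0.230 against 0.000556 counts per cell, a fold of 178 (129 to 247). All 5 genes of the fat vessel list were over 2-fold higher, with a median of 4.95. The other gene of the brown fat list, Ppargc1a, a coactivator of mitochondrial genes, had a fold of 1.37 (1.03 to 1.78).

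Lists of other cell types were also higher in the same cells. The 3 genes of the mesothelium list (Upk1b, Upk3b and Lrp2), the lining of organ surfaces, had a median fold of 50.1, and Upk3b stood at 1.72 against 0.00885 counts per cell, a fold of 83.6 (76.1 to 91.9). All 7 fibroblast genes were over 2-fold higher, with a median of 11.2, led by Igfbp6, a binding protein of insulin-like growth factors, at a fold of 56.4 (52.1 to 61.1). The macrophage list was at 8.69 counts per cell against 4.51, which in CPM was 0.830 of the level in other cells. The T cell list had a median fold of 0.14, the erythroid list 0.14 and the neutrophil list 0.18, with every gene of these 3 lists over 2-fold lower, as were 183 of the 461 genes. The skeletal muscle list, at 0.346 against 0.130 counts per cell, had a median of 0.78 over 13 genes, and the hepatocyte list, at 0.106 against 0.0444 counts, a median of 1.19. The part that neighboring cells have in these counts was not tested.

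Against the 2260 cells of the edge patch without any member count, the fat cell list kept a median fold of 8.75 with 6 of 6 genes over 2-fold higher, and the mesothelium list a median of 22.1. The fibroblast list came down to 2.43, with 5 of 7 genes over 2-fold higher. Over the 245 genes compared there, 65 were over 2-fold higher and the median fold was 0.680. The groups compared were not matched for depth. All cells of the patch had a median distance of 202 µm from the tissue edge, against 75.3 µm for cells with at least 3 Car3. The patch was also graded by the Car3 count of its cells. From cells with 3 to 9 Car3 (n = 126) to cells with 100 or more (n = 25), Retn rose from 1.23 to 51.5 counts per cell, Pck1 from 0.508 to 11.3, Aqp7 from 0.294 to 3.60 and Cox8b from 0.0238 to 1.28. The mesothelium list stood at 2.07, 2.74, 2.205 and 0.800 counts per cell in the bins from 3 to 9, 10 to 29, 30 to 99 and 100 or more Car3. It was thus highest at 10 to 29 Car3 and lowest in the last 25 cells. The macrophage list went from 11.5 to 5.40 and the T cell list from 1.53 to 0.320 over these bins, while the fibroblast list went from 8.68 to 14.6. The median of all counts per cell was 171, 198, 316 and 576 in these bins. The fibroblast list thus rose less than the total, and the mesothelium list was lower relative to it from 30 Car3 on. The median area of the cell outline rose from 104 to 372 µm². Among cells with 30 or more Car3, every cell had Retn.

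**Figure D3:**
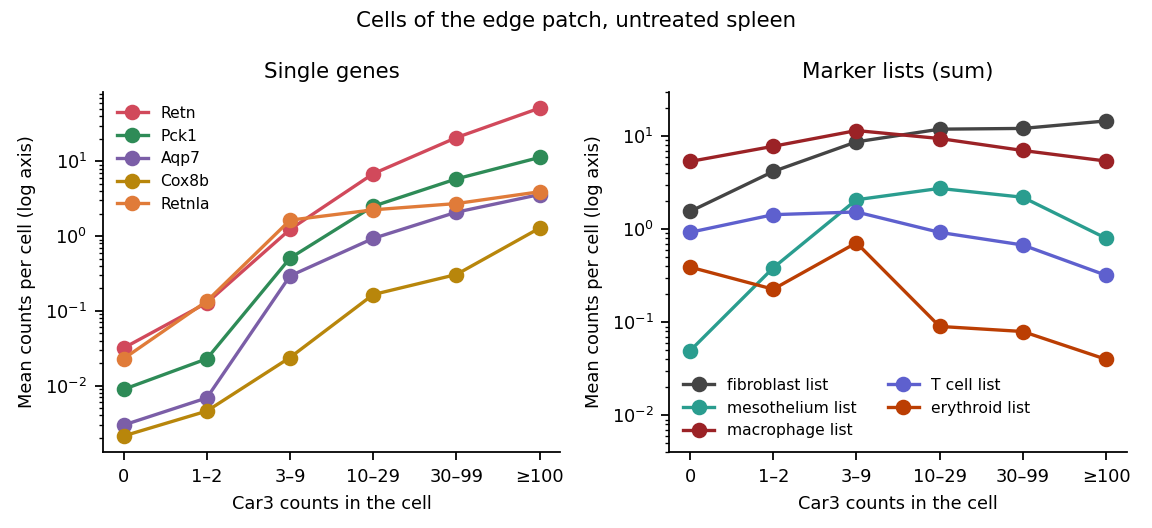
Mean counts per cell (log axis) of single genes, left, and of summed marker lists, right, in cells of the edge patch of the untreated spleen grouped by their Car3 count. Retn, Pck1, Aqp7 and Cox8b rise through all groups, to 51.5, 11.3, 3.60 and 1.28 at 100 or more Car3, while the mesothelium, macrophage and T cell lists peak at 3 to 29 Car3 and end lower.

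Retnla, the neighbor of Retn in its family, was also high in the same cells. It had 2089 counts in the untreated spleen, of which 1196 lay in the edge patch, a smaller part than of the members. It stood at 2.26 counts per cell in the member-high cells against 0.00923, a fold of 105 (96.6 to 115). It rose less steeply with Car3, with 1.63 counts in cells of 3 to 9 Car3 and 3.92 in cells of 100 or more. Car2, the erythroid relative of Car3, did not follow them, at 0.0828 counts per cell against 0.285, a fold of 0.125 (0.0893 to 0.170).

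Transcripts of the members in the edge patch were seldom over the nucleus. Only 13.7% (13.1 to 14.2) of Car3, 13.4% (12.6 to 14.3) of Retn and 15.9% (14.2 to 17.7) of Pck1 counts there lay over a nucleus, against 41.9% for all genes over the 3249 cells of the patch. Of those cells 2260 had no member count, and their outlines were smaller, with a median area of 34.7 µm² and a median nucleus of 15.8 µm². In the 483 cells with at least 3 member counts these medians were 148 and 20.5 µm². The share of all genes over the nucleus in those 483 cells was not measured. In the rest of the section the shares of Car3, Retn and Pck1 were 64.4% (61.1 to 67.6), 76.0% (72.5 to 79.3) and 71.1% (64.9 to 76.8), above the 59.6% of all genes. In the PHZ-treated spleen they were 63.9% (59.7 to 67.9) for Car3, 86.0% (82.8 to 88.8) for Retn and 74.4% (65.6 to 81.9) for Pck1, against 51.0% for all genes. The sparse counts outside the patch and those of the PHZ-treated spleen thus lay mostly over nuclei, and those of the patch mostly outside them.

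In the sparse remainder of the untreated spleen, sharing of cells was small. Outside the edge patch 8 cells had Car3 and Retn and 2 had Retn and Pck1, where the products give 5.14 and 1.43, both within counting error. Car3 and Pck1 shared 7 cells against 1.90, 3.68 times (1.48 to 7.57) the product. Within the patch the ratios were 3.12 (2.84 to 3.43) for Car3 and Retn, 3.42 (3.08 to 3.79) for Car3 and Pck1, and 5.56 (4.98 to 6.18) for Retn and Pck1, each lower than over the whole section. The patch reached inward of most high cells, with a median edge distance of 202 µm over its cells.

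The contrast of PHZ-treated with untreated spleen was used to select the genes, so that their folds are a description. Car3 was 34.4-fold (31.6 to 37.6) lower after PHZ, the lowest ratio of 472 genes with at least 100 counts over both spleens. Pck1 was 18.0-fold (15.003 to 21.8) lower and Retn 13.8-fold (12.6 to 15.1) lower. Over nuclei alone the ratios of PHZ-treated to untreated were 0.132 for Car3, 0.211 for Pck1 and 0.373 for Retn, which are smaller differences. The 121 Pck1 counts after PHZ compare with 76 for the most abundant negative control probe of that section, and 454 further Pck1 transcripts fell below the decoding quality score of 20 that the counts require. Decoding differed between the spleens for all genes, with 4779024 transcripts below that score and 11631983 at or above it after PHZ, and 1087229 and 10413593 in the untreated spleen. After PHZ, Car3 had 622 below and 563 at or above it, and Retn 511 and 548, against 2059 and 17103 for Car3 and 1300 and 6857 for Retn in the untreated spleen. The part of decoding quality in the folds was not tested. All 3 members were at least 2-fold lower, as were 27.5% of the 472 genes, and the median ratio of PHZ-treated to untreated over these genes was 0.731.

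The size of these folds rested on the edge patch. Without its cells, Car3 stood at 87.4 CPM in the untreated spleen, which was 1.85-fold (1.66 to 2.06) above the PHZ-treated spleen. Retn stood at 64.9 CPM, 1.36-fold (1.21 to 1.53) above it, and Pck1 at 24.0 CPM, 2.27-fold (1.82 to 2.85) above it. In place of the reduction of 13.8-fold to 34.4-fold, the ratios of PHZ-treated to untreated were then 0.540 for Car3, 0.733 for Retn and 0.441 for Pck1, where the median of 0.731 over all genes was taken with the patch included. The PHZ-treated section had no counterpart of the patch. Its 17 patches covered 21 squares, the largest held 19 member counts, and all of them together held 9.96% of member counts. Treatment, animal and what tissue the section included cannot be told apart here.

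Over squares of the PHZ-treated spleen, the members correlated little with each other. The highest correlations of Retn were with Cxcr5 (r = 0.44), Foxp3 (0.42), Cd3d (0.40), Il2ra (0.40) and Cd3e (0.40) over 2822 squares. Those of Car3 were with Foxp3, Lamp3, Cxcr5 (each 0.33), Il2ra and Pdcd1 (each 0.32), and those of Pck1 with Foxp3 (0.28), Insm1 (0.26), Il2ra (0.26), Ppargc1a (0.26) and Lamp3 (0.25). Retn correlated with Car3 at 0.18 and with Pck1 at 0.12. At 540, 544 and 121 counts these are sparse, and 542 cells held the Retn counts, all but 2 of them with 1 count.

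In the P8 bone marrow, most Car3 lay in cells with genes of skeletal muscle. The part of Retn there was near the share of all counts, and that of Pck1 was above it. Cells with at least 3 counts of the skeletal muscle list made up 8.45% of cells and held 13.0% of all counts. They held 78.3% (77.7 to 78.9) of Car3, 23.1% (19.6 to 27.0) of Pck1 and 11.2% (8.50 to 14.5) of Retn counts. Pck1 was at 145 CPM in them and at 72.2 CPM in the other cells. Car3 rose from 0.0695 counts per cell in cells without the list to 1.51 at 10 to 29 list counts, 4.74 at 30 to 99 and 10.6 at 100 or more. Retn stayed between 0.00546 and 0.0211 and Pck1 between 0.00610 and 0.0431 over all these bins, both with their highest value at 3 to 9 list counts. The genes most like Car3 over 2923 squares were Hrc (r = 0.83), Des (0.81), Actn3 (0.81), Myoz1 (0.80) and Pygm (0.80), which encode proteins of the contractile apparatus, calcium store and glycogen use of muscle.

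**Figure D4:**
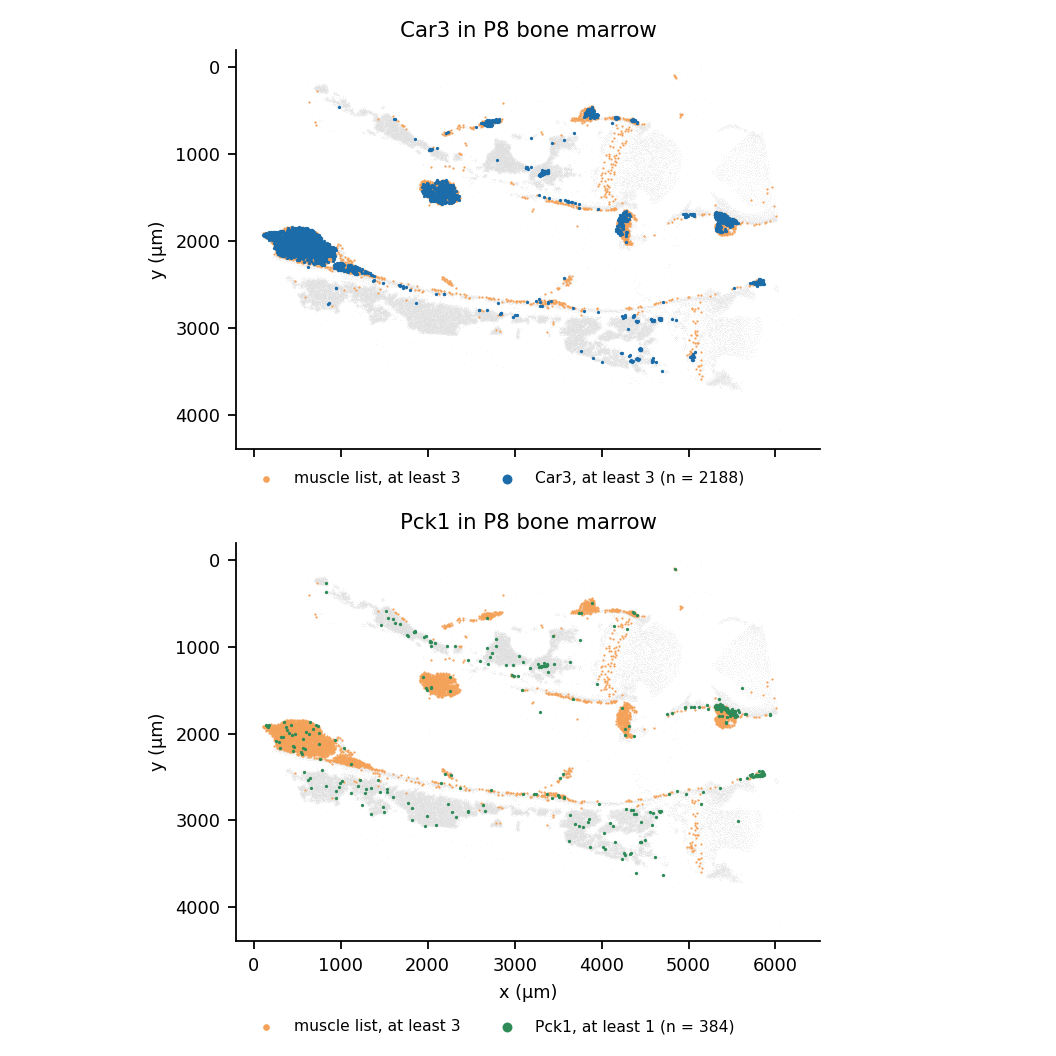
Position in the P8 bone marrow section, in µm, of cells with at least 3 Car3 (upper map, n = 2188) and of cells with Pck1 (lower map, n = 384), over cells with at least 3 counts of the skeletal muscle list (orange) and all cells (gray). Car3 fills the muscle areas, whereas Pck1 is dense at a few small places and thin in the largest muscle area.

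Patches of the P8 marrow differed in these proportions. The largest, with 41.6 muscle list counts per cell, had 9033 Car3, 31 Retn and 36 Pck1 counts, or 3.99 Pck1 per 1000 Car3. It also held 512 Aqp7 and 743 Cox8b counts. The next had 57.5 list counts per cell with 3604 Car3, 8 Retn and 7 Pck1, or 1.94 per 1000, and 191 Aqp7 and 428 Cox8b counts. A patch of 92 cells with 0.457 list counts per cell had 461 Car3, 22 Retn and 54 Pck1, which is 117 Pck1 and 47.7 Retn per 1000 Car3, along with 31 Aqp7 counts and 1 Cox8b count. A patch of 704 cells with 16.6 list counts per cell held 1733 Car3, 35 Retn and 211 Pck1, or 122 Pck1 per 1000 Car3 and 40.0% of all Pck1 of the section. Muscle list counts alone did not set the proportions apart. A patch of 257 cells with 16.4 list counts per cell had 306 Car3 and only 1 Pck1 count, or 3.27 Pck1 per 1000 Car3. A patch of 371 cells with 0.0566 had 341 Car3, 18 Pck1 and 5 Retn, or 52.8 Pck1 and 14.7 Retn per 1000 Car3. In the edge patch of the untreated spleen the corresponding values were 109 Pck1 and 385 Retn per 1000 Car3. The P8 patches of 92 and 704 cells were thus near the spleen in Pck1 relative to Car3 and below it in Retn, and the patch of 371 cells was below it in both. The spleen patch had 0.209 muscle list counts per cell, against 16.6 in the patch of 704 cells. The part of muscle in the Car3 of the patch of 704 cells was not tested.

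Pck1 was concentrated in 13 of the 2923 squares of the P8 section, which had at least 5 Pck1 counts each and held 47.1% of it. They also held 1733 Car3, 147 Aqp7 and 3606 muscle list counts in 429 cells. Of these squares 8 had under 1 muscle list count per cell and 4 had at least 3, compared with 2304 and 364 of the 2910 other squares. Pck1 was most like Nnat (r = 0.41), Sod3 (0.36), Car3 (0.34), Dpt (0.34) and Aqp7 (0.34), where Nnat and Aqp7 belong to the fat cell list and Dpt, the matrix protein dermatopontin, to the fibroblast list. Aqp7 was not particular to fat-like cells in this section, as 60.1% (57.6 to 62.6) of its 1490 counts lay in the muscle list cells. In the 283 cells with Pck1 and under 3 muscle list counts, Nnat stood at 0.495 counts per cell against 0.00742 in the other cells under that limit, Aqp7 at 0.353 against 0.0103 and Dpt at 1.26 against 0.0539. Of the fat cell list, 4 of 6 genes were over 2-fold higher there, beside 105 of 438 genes in all. The fat vessel list had 5 of 5 such genes, the fibroblast list 7 of 7, with a median fold of 2.72, and the skeletal muscle list 8 of 13, with a median of 2.21.

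The 317 cells with at least 3 Car3 but under 3 muscle list counts had a like profile, but they overlap with the Pck1 cells above. They held 212 Pck1 counts, against 193 in all other cells under that limit, so that the profiles are not independent. Nnat stood at 0.508 counts per cell against 0.00698 and Aqp7 at 0.451 against 0.00943. Of the fat cell genes, 5 of 6 were over 2-fold higher, with a median fold of 10.6. All 438 genes had a median of 0.993, and 99 of them were over 2-fold higher. All 5 fat vessel and 5 of 7 fibroblast genes were over 2-fold higher too. The muscle list was itself at a median fold of 2.32 in them, with 8 of 13 genes over 2-fold higher, and the mesothelium list stood at 0.00315 counts per cell. The median area of their outlines was 87.8 µm², between the 143 µm² of cells high in both Car3 and the muscle list and the 50.7 µm² of all cells. Over nuclei lay 17.4% (16.8 to 18.0) of Car3 in the muscle list cells and 31.0% (29.6 to 32.4) in the others, against 24.7% and 52.5% of all genes.

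Retn of the P8 marrow was spread more evenly than Pck1, which had a similar number of counts (463 and 527). Its counts over squares deviated from those in proportion to all counts by a mean square of 1.77 times the expected count, against 13.1 for Pck1. Its highest correlations were with Mgll (r = 0.37), Igf1 (0.36), Selenop (0.36), Tlr4 (0.36) and C1qb (0.35), and it lay over nuclei in 61.6% (56.95 to 66.0). The transcripts of Retn below the quality score of 20, which the counts leave out, numbered 1232 in this section, more than the 473 at or above it.

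In the E14.5 fetal liver, Car3 and Pck1 were higher in cells with more counts of hepatocyte genes. Cells with at least 3 counts of the hepatocyte list made up 63.4% of cells and held 70.0% of all counts, and 93.7% (93.5 to 93.9) of Car3 and 86.4% (84.0 to 88.6) of Pck1 lay in them, against 67.3% (63.7 to 70.8) of Retn. Car3 rose from 0.0512 counts per cell in cells without the list to 3.56 (3.41 to 3.71) in cells with 60 or more list counts. Pck1 rose from 0.00201 (0.00142 to 0.00276) to 0.0497 (0.0335 to 0.0709). Retn was 0.00487 (0.00393 to 0.00598) and 0.00331 (0.000401 to 0.0120) at the same ends, which overlap. Cells with more list counts also had more counts in all, with a median of 124 at the lower and 345.5 at the upper end. In CPM, Car3 still rose from 383 to 9945 and Pck1 from 15.04 to 139.

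**Figure D5:**
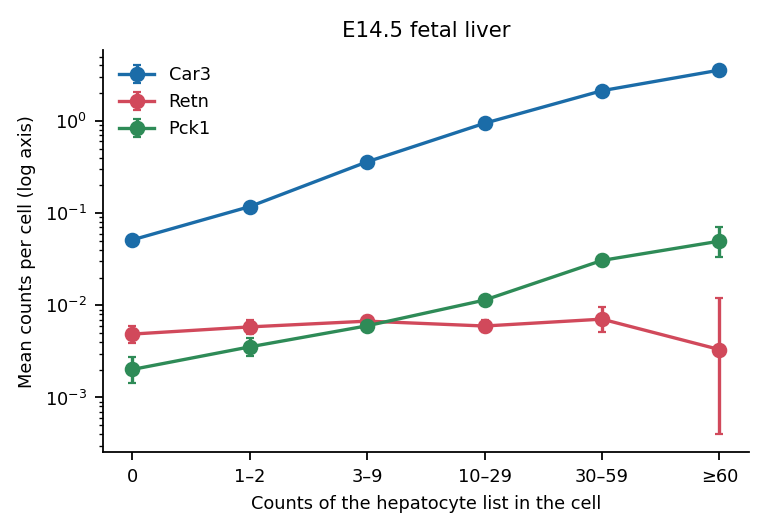
Mean counts per cell (log axis) of Car3, Retn and Pck1 in the E14.5 fetal liver by the cell's counts of the hepatocyte list, with exact 95% Poisson intervals for counting error. Car3 rises from 0.0512 to 3.56 and Pck1 from 0.00201 to 0.0497, while Retn shows no rise.

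The genes most like Car3 over 3009 squares of the E14.5 liver were Kng2 (r = 0.90), Hpx (0.88), C3 (0.87), Gc (0.87) and Slc27a2 (0.87), of which Kng2, Hpx, C3 and Gc encode plasma proteins. The total counts of a square alone correlated with Car3 at 0.78. For Pck1 the order was Gc, Car3, Ccl9, Kng2 and Hpx, all at 0.25, beside 0.21 for total counts. For Retn it was Ldhb, Vegfa, Cd164, Anxa2 and Cndp2, from 0.19 to 0.17, and 0.15 for total counts. All 13 hepatocyte genes were over 2-fold higher in the 6046 cells with at least 3 Car3, with a median of 3.24 where all 469 genes had 0.726 and 57 of them were over 2-fold higher. In the 877 cells with Pck1 the list had a median of 2.04 with 7 of 13 genes over 2-fold higher, where all 469 genes had 0.880 and 33 of them were over 2-fold higher. The 6046 Car3 cells also held 27.5 erythroid list counts per cell beside 28.0 hepatocyte list counts, against 33.3 and 7.56 in other cells. The part that neighboring cells have in these counts was not tested.

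Car3 differed between pieces of the E14.5 liver that were separate in the section. The 4 pieces with at least 14400 cells had 3337 (3302 to 3373), 2867 (2819 to 2916), 1585 (1542 to 1629) and 2875 (2810 to 2940) CPM of Car3. Relative to 1000 counts of the hepatocyte list, these were 67.3, 57.9, 35.6 and 62.3 Car3 counts, so that the piece of 17319 cells was low also relative to that list. Pck1 in the same piece was 32.0 CPM (26.2 to 38.9), with 43.0 (39.05 to 47.1), 47.9 (41.8 to 54.6) and 46.6 (38.7 to 55.7) in the others. Pieces of 1 section are not replicates.

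Car3 and Retn ran in opposite directions from the border of that section inward. Car3 rose from 1833 CPM (1765 to 1903) in the outer 50 µm to 3544 CPM (3475 to 3614) at 400 µm or more, and from 48.9 to 68.4 counts per 1000 hepatocyte list counts. Retn went from 84.5 CPM (70.4 to 101) to 20.4 CPM (15.5 to 26.4). Pck1 was 48.6 CPM (38.1 to 61.1) at the border and 53.5 CPM (45.3 to 62.7) inside, which overlap. In the 705 cells with Retn, the mesothelium list had a median fold of 4.04, with 3 of 3 genes over 2-fold higher, against 1.23 over 469 genes, of which 73 were over 2-fold higher, and Upk3b stood at 0.390 against 0.0682 counts per cell. Retn counts nevertheless came singly, with no cell above 2, and 86.1% (83.3 to 88.5) of them lay over nuclei, against 57.2% of all genes.

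Pck1 of the E14.5 liver differed from the other members in how much of it lay outside cells. Of 1338 transcripts at the quality score of 20, 434 were in no cell, which leaves 67.6% (65.0 to 70.1) inside, compared with 99.4% of Car3, 99.4% of Retn and 97.2% of all genes. Those outside lay at a median of 127 µm from the nearest nucleus. In the P8 marrow 87.1% (84.2 to 89.7) of Pck1 was in a cell, beside 89.4% of all genes, and in the untreated spleen 99.2% (98.8 to 99.6). The stray transcripts do not enter the counts above.

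In the aged bone marrow, Retn was too sparse for its sharing of cells with fat genes to be measured closely. Adipoq, which encodes the fat hormone adiponectin, had 2698 counts in 2458 cells, of which 1 also had Retn, where the product of the shares gives 1.23. Plin1, the coat protein of lipid droplets, had 170 counts and shared 3 cells with Retn, against 0.0786. Lpl, a lipase that fat cells secrete, had 6244 counts and shared 6 cells against 2.63, and Lep, the gene of leptin, had 18 counts and shared none. Of the other genes of the fat lists, Cd36 shared 4 cells against 3.88, Lipe 1 against 0.401 and Cav1 1 against 0.107. Pparg, Timp4, Cox8b and Ppargc1a shared none. Retn was seen in 72 cells with at most 2 counts each, and its 73 counts compare with 18 for the most abundant negative control probe. In the E13.5 fetal liver Retn had 2 counts in 2 of 5285 cells, and Adipoq had 3.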

How the data were processed

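Imaging-based in situ transcriptomics (Xenium) of 6 mouse sections was analyzed. The authors deposited counts of decoded transcripts per gene and segmented cell, made by the instrument's software (versions 1.7.1.0 and 3.1.0.4 per the file headers) without normalization, with the position and area of each cell. For the smaller panel the authors also deposited single transcripts with a quality score and a mark for those over a nucleus. At a quality score of at least 20, these gave the deposited counts of the members. On the larger panel the run descriptions name a stain for drawing the cells, and on the smaller they name none, so that cell outlines may differ between panels. All segmented cells entered, and doublets were not called. Files of cell outlines and of the panel design were not used.

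The members and all lists were chosen with earlier results of these data known. Counts were summed per section and divided by the total of all genes (CPM). A cell was positive with at least 1 count and high with at least 3. Intervals are exact Poisson for sums, exact binomial (Clopper-Pearson) for shares and conditional binomial for ratios, at 95%. No test was run, since each group had 1 section. Squares were 50 µm, patches joined squares with at least 5 member counts, and the tissue edge was that of the squares holding a cell, with holes filled. The 16 marker lists are named where used, and the pancreas acinar, smooth muscle, endothelium, granulocyte progenitor and cartilage lists had median folds of 3.67, 0.853, 1.15, 0.351 and 0.732 in the member-high cells of the untreated spleen. Genes other than members were named if among the 4 list genes with the highest fold in those cells, among the 5 best correlated with a member over squares (genes with at least 100 counts), or as the relatives Car2 and Retnla. The values of Nnat and Dpt in P8 cells, of Upk3b in the E14.5 liver and of the fat genes in the aged marrow were chosen after they were seen. Promoter stretches came from RefSeq (GRCm38.p6), and the files name no genome build. Patch finding, distances and intervals were tested on simulated data. Python 3.11.15, numpy 2.4.6, pandas 2.3.3, scipy 1.17.1 and matplotlib 3.10.9 were used. Alternatives covered the cells used, the denominator, the quality score, the nucleus, thinning to 50 counts (leaving out 16939 untreated and 14740 PHZ-treated cells with fewer), square size, patch minimum, the tissue mask and the list minimum.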

Additional observations from a re-analysis of the deposited data

How the results depend on the processing

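Of 78 alternative values for the main results, 28 stayed within the counting interval, 50 moved beyond it and 0 reversed. A reversal was a change of side of 1, defined only for the ratios of shared cells and of PHZ-treated to untreated spleen. Levels, shares and orders of sections could not count as reversed. Of 64 for other levels and shares, 29 stayed and 35 moved. The order of Car3 between P8 marrow and E14.5 liver did turn, as given above. No paired analysis was possible because each group had 1 section. The cause of each shift was not tested.

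With a denominator of the genes on both panels, Car3 in the P8 marrow came to 6337 CPM, and Retn and Pck1 in the untreated spleen to 1239.6 and 361 CPM. Car3 in the P8 marrow was 3169 CPM without Hbb-bt in the total and 2882 CPM over all transcripts, in a cell or not. At a quality score of at least 30, Retn and Pck1 in the untreated spleen were 706 and 163 CPM. Over nuclei, Car3 in the P8 marrow was 1257 CPM, and Retn and Pck1 in the untreated spleen were 216 and 73.1 CPM.

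Cells with Car3 and Retn in the untreated spleen, over the product of the shares, gave 27.0 at the stricter score, 30.5 over nuclei, 233 at 3 counts and 43.95 after thinning to 50 counts per cell. Car3 and Pck1 gave 43.0, 41.8, 234 and 55.6 in the same order. Retn and Pck1 gave 58.8 at the stricter score, 311 at 3 counts and 72.1 after thinning. After thinning, Car3 was seen in 1.11% of untreated and 0.264% of PHZ-treated cells, Retn in 0.737% and 0.286%, and Pck1 in 0.313% and 0.0676%.

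Patches held 93.3%, 98.7% and 94.05% of Car3 with squares of 25 µm, squares of 100 µm and a minimum of 10 counts, against 95.5%. They held 89.6%, 96.7% and 90.1% of Retn, against 91.3%, and 95.1% of Pck1 with squares of 100 µm, against 88.6%. With a tissue outline of 100 µm squares, 48.3% of Car3, 52.6% of Retn and 54.0% of Pck1 high cells lay within 100 µm of the edge. Muscle list cells held 61.9% of Car3 over nuclei and 75.03% at 10 list counts. Hepatocyte list cells held 82.7% of Car3 and 67.3% of Pck1 over nuclei, and 71.2% and 61.3% at 10 list counts.

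PHZ-treated over untreated spleen was 0.132 for Car3, 0.373 for Retn and 0.211 for Pck1 over nuclei. Per cell it was 0.0367, 0.0918 and 0.0701. Without the patches of both spleens it was 0.547, 0.715 and 0.428, and without the edge patch 0.540, 0.733 and 0.441. Retn at the stricter score was at 0.0649. Depth limits Retn on the larger panel and Pck1 after PHZ most, with 2 to 121 counts.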
